A study of Canis lupus familiaris with 2 samples.

Results

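The miR-106b-25 cluster is a group of 3 microRNAs, miR-106b, miR-93 and miR-25, encoded together inside the gene MCM7. It is described here with miR-92b, which shares the seed of miR-25 but comes from a separate gene. The members were the probes named cfa-miR-106b, cfa-miR-93, cfa-miR-25 and cfa-miR-92b on a dog miRNA array, 4 of its 291 dog miRNA probes, each with 1 spot and with no probe for an opposite arm. They are written below without the species prefix. The cells were SNP cells, canine mammary gland tumour cells. The monolayer group was grown attached to the dish, in RPMI-1640 medium with serum and antibiotics. The spheroid group was started from cells found floating in that medium, which were picked out and grown without basement membrane or other matrix material. Each group was 1 total RNA sample on 1 array, and the RNA integrity was 9.8 (monolayer) and 9.7 (spheroid). The effect of culture form cannot be told apart from that of picking floating cells, nor from any difference between single cultures.

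A mature miRNA guides the Argonaute protein to mRNAs that pair with its seed, the bases near its 5′ end, and lowers the output of those mRNAs. MCM7, the host gene, encodes a subunit of the helicase that opens DNA for replication, and both the gene and its cluster are known from human cells to be driven by E2F transcription factors. In human cells miR-106b and miR-93 share the seed of miR-17 and repress the cell cycle inhibitor p21, while miR-25 represses the inhibitor p57 and the pro-apoptotic protein BIM. The same seeds recur in the miR-17-92 and miR-106a-363 clusters, 2 related copies of this gene group. In the RefSeq gene table of the dog assembly UU_Cfam_GSD_1.0, 3 miRNA genes lay inside MCM7, those of miR-106b, miR-93 and miR-25 in that order, and no other gene did. The gene of miR-92b lay within no listed gene, with 0 other miRNA genes within 10 kb. No level of MCM7 itself was measured, since the array held miRNA probes.

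The members were read above the level of the blank spots on both arrays. Detection required a raw intensity more than 2 SD over the average blank spot, a limit that came to 89.8 for the monolayer and 79.8 for the spheroids, and 178 miRNAs did so on both arrays. The raw intensity of miR-106b was 492 (monolayer) and 774 (spheroid). In the same order miR-93 had 574 and 857, miR-25 had 221 and 291, and miR-92b had 131 and 109. The dimmest of the 4, miR-92b, still stood 19.5 and 21.0 blank SDs above the blank mean, though only at 1.46 and 1.37 times the limit. All 4 therefore had a measured value on either side, and none is given as a bound.

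In the authors' deposited values, which are intensities with the blank level removed and each array scaled to a common median, the 3 MCM7 miRNAs were higher in the spheroids and miR-92b was lower. miR-106b had a deposited value of 249 for the monolayer array and 347 for the spheroid array, a ratio of 1.40. miR-93 stood at 299 and 388, a ratio of 1.30. miR-25 stood at 83.3 and 106.4, a ratio of 1.28. These 3 ratios were close to each other, but the 3 miRNAs are encoded together in MCM7 and are not replicates of each other. By this measure 3 of 4 members were higher, where 50.6% of the 178 miRNAs were, and 1 was lower, where 49.4% were. miR-92b stood at 28.2 and 16.2, so the monolayer value was 1.74 times the spheroid value. Brightness differs between probes for reasons of probe design, so each miRNA is set only against itself on the other array.

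**Figure D1:**
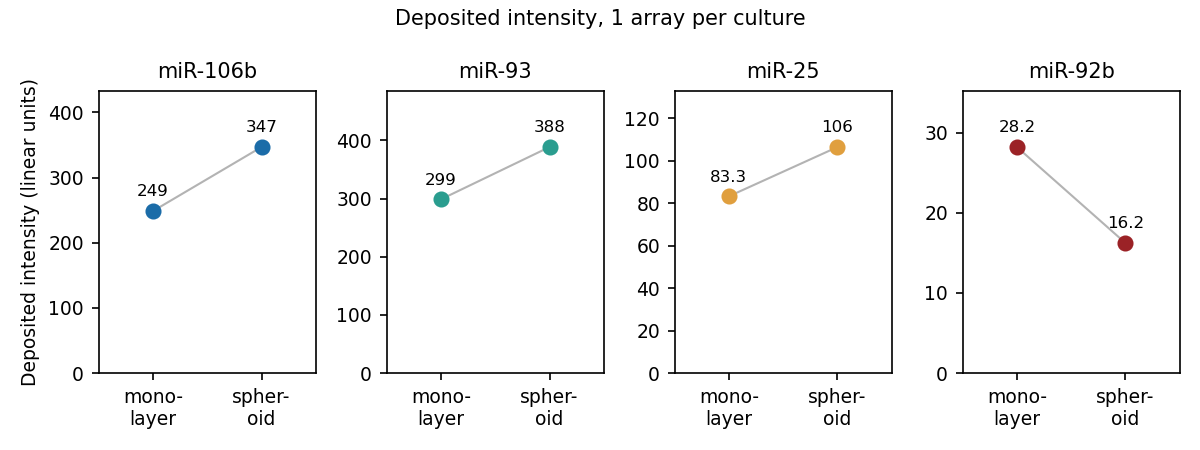
Deposited intensity in linear units (vertical axes, each starting at 0 with its own range) of the 4 members on the monolayer and the spheroid array, 1 point per array. miR-106b, miR-93 and miR-25 are higher in the spheroids, from 249 to 347, 299 to 388 and 83.3 to 106.4, and miR-92b is lower, from 28.2 to 16.2.

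The main values used for differences were background corrected with an added offset of 50 and then quantile normalized on the log2 scale, which gives both arrays the same distribution. On that scale a difference is the spheroid value minus the monolayer value, and the offset draws the differences of dim miRNAs towards 0. miR-106b went from a log2 level of 9.17 in the monolayer to 9.37 in the spheroids, a difference of 0.20. miR-93 went from 9.32 to 9.50, a difference of 0.18, and miR-25 from 7.76 to 7.88, a difference of 0.12. The median of these 3 was 0.18, against -0.05 for all 178 miRNAs. miR-92b went the other way, from 6.74 to 6.39, a difference of -0.35. Of all 178, 44.9% were above 0 and 54.5% below.

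None of the 4 members was 2-fold or more apart, a size reached by 5.06% of the 178 miRNAs, nor was any in the deposited values, where 27% were. A finer yardstick was the spread of repeated control spots (6 probes, 8 spots per probe and array), whose log2 differences had a pooled SD of 0.065. This SD was taken from the background corrected values before quantile normalization, while the differences set against it are the main values. The differences of miR-106b and miR-93 were 3.03 and 2.71 of these SDs, that of miR-25 was 1.82, and that of miR-92b was -5.43. Thus 2 of 4 members were higher by more than 2 such SDs, where 32.6% of all 178 were, and 1 was lower by more than 2, where 36% were. These shares show that differences of the members' size were common on these arrays. The counts past 2 SDs hold for the main values only. Without scaling, as for the SD itself, miR-106b, miR-93, miR-25 and miR-92b were at 0.69, 0.61, 0.47 and -0.25. The median of all 178 was then 0.090. The SD covers the error of a spot and nothing of the variation between cultures, and with 1 array per group no test was possible.

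Quantile normalization works through ranks, and the members' ranks show what moved. By raw intensity miR-106b was 25th of 291 in the monolayer and 22nd in the spheroids. miR-93 moved from 23rd to 20th and miR-25 from 52nd to 49th. miR-92b moved from 88th to 103rd, the longest shift of the 4 and in the opposite direction. Ordered by difference, 49 of the 178 miRNAs were higher than miR-106b, 54 were higher than miR-93 and 60 higher than miR-25. For miR-92b, 27 had a lower difference.

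**Figure D2:**
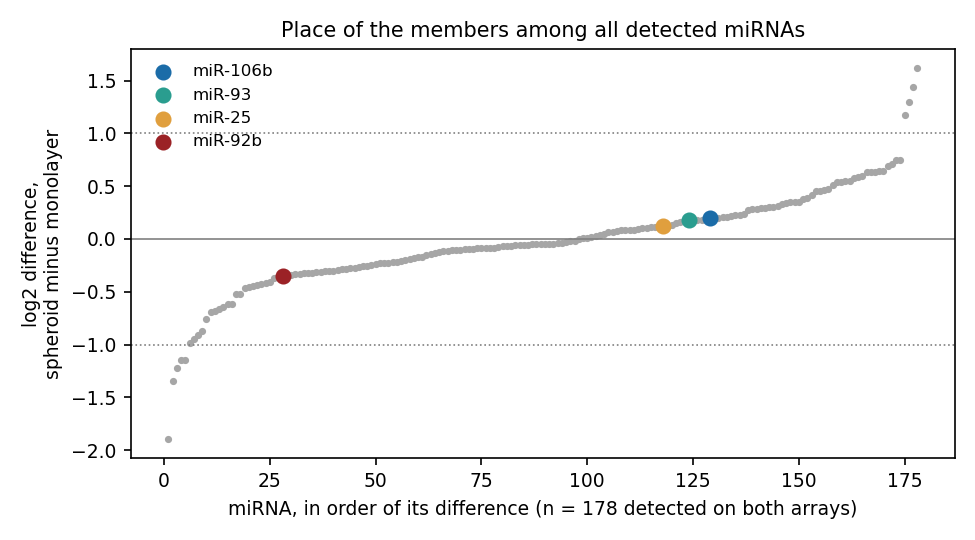
The log2 difference (spheroid minus monolayer, normalized values) of the 178 miRNAs detected on both arrays, in order of size, with the 4 members coloured and dotted lines at 2-fold. miR-25, miR-93 and miR-106b lie above 0, at 0.12 to 0.20, and miR-92b lies at -0.35 among the lower miRNAs, all inside the 2-fold lines.

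As a part of the miRNA signal above the blank level, miR-106b made up 0.941% in the monolayer and 1.20% in the spheroids, and miR-93 made up 1.13% and 1.34%. miR-25 made up 0.315% and 0.367%. The 3 miRNAs of MCM7 summed to 2.39% (monolayer) and 2.90% (spheroid). miR-92b made up 0.107% and 0.0559%. These shares are of probe brightness and not of molecules.

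The miR-17 seed is carried by miR-106b and miR-93 and by 4 miRNAs of the related clusters, which allows a comparison within a seed family. miR-106a had deposited values of 591 (monolayer) and 549 (spheroid) and a log2 difference of -0.41 in the main values. miR-20a had 453 and 440.2, with -0.31. miR-20b had 246 and 255, with -0.24. miR-17 had 36.1 and 28.8, with -0.11. In the main values all 4 were below 0, where 54.5% of the 178 miRNAs were, with a median of -0.28. Both members with this seed in MCM7 were above 0, but the 4 relatives were not always below. The sign of these relatives rested on the scaling, since 3 of the 4 were above 0 with the arrays scaled to their median (median 0.11) or not scaled (0.21), and 4 of 4 with either spike control scaling (0.52 and 0.54). The median of all 178 miRNAs moved as well, to -0.0043, 0.090, 0.40 and 0.61 in the same order.

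A comparison that does not rest on the scale factor is how far the members moved relative to these relatives on the same arrays. The median of the MCM7 miRNAs, which counts miR-25 with its different seed, lay 0.45 above that of the other 4 miRNAs with the miR-17 seed in the main values. Under the other settings it lay 0.41 to 0.56 above. The 0.56 came with the background column described below subtracted, where the MCM7 median was the value of miR-93 alone. There miR-106b and miR-93, which carry the seed, were at -1.54 and -0.19, and miR-25, which does not, was at 0.64. The median of the other 4 was then -0.74, above miR-106b and below miR-93. The difference of miR-93 exceeded that of miR-106a by 0.59, with a range of 0.43 to 0.83 under the other settings. The difference of miR-106b exceeded that of miR-106a by 0.61, and by 0.52 to 0.66 under the other settings except the background column described below, where it was lower. The comparison was made with the directions of these miRNAs already known from the same arrays, and it describes this pair of arrays only. Whether the probes for these closely related sequences read each other's miRNA was not tested.

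The related clusters as a whole showed the same offset. Of their 10 miRNAs 9 were detected on both arrays, and all 9 had a lower difference than each of the 3 MCM7 miRNAs in the main values. Of all 178 miRNAs, 65.7% had a lower difference than miR-25, the lowest of the 3. Their median was -0.32, with miR-19a the lowest at -0.61, then miR-18b at -0.45, miR-106a at -0.41 and miR-18a at -0.36. miR-19b was at -0.28. All 9 also lay below each MCM7 miRNA under 9 of the 10 other background treatments and scalings. The exception was the background column described below. These settings are not separate checks, since several differ only in a factor per array, which cannot change this order. With the main background correction, miR-106b exceeded miR-106a by 0.52 under median, 75th percentile or spike control scaling and without scaling. In the authors' values and under the other spike control scaling the excess was 0.58. All 9 related miRNAs were below 0 in the main values, where 54.5% of the 178 miRNAs were. However, 4 were above 0 with median scaling, 6 without scaling and 9 with either spike control scaling. The medians of the 9 were then -0.010, 0.084 and, for the spike settings, 0.40 (normexp) and 0.46 (blank mean subtracted). Those of all 178 miRNAs were -0.0043, 0.090, 0.40 and 0.61 in the same order. With the background column subtracted the order of the medians was reversed, at 0.11 for the 9 related miRNAs and -0.19 for the MCM7 miRNAs. miR-19b and miR-92a are each encoded in both related clusters, so their probes read the sum of the copies.

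**Figure D3:**
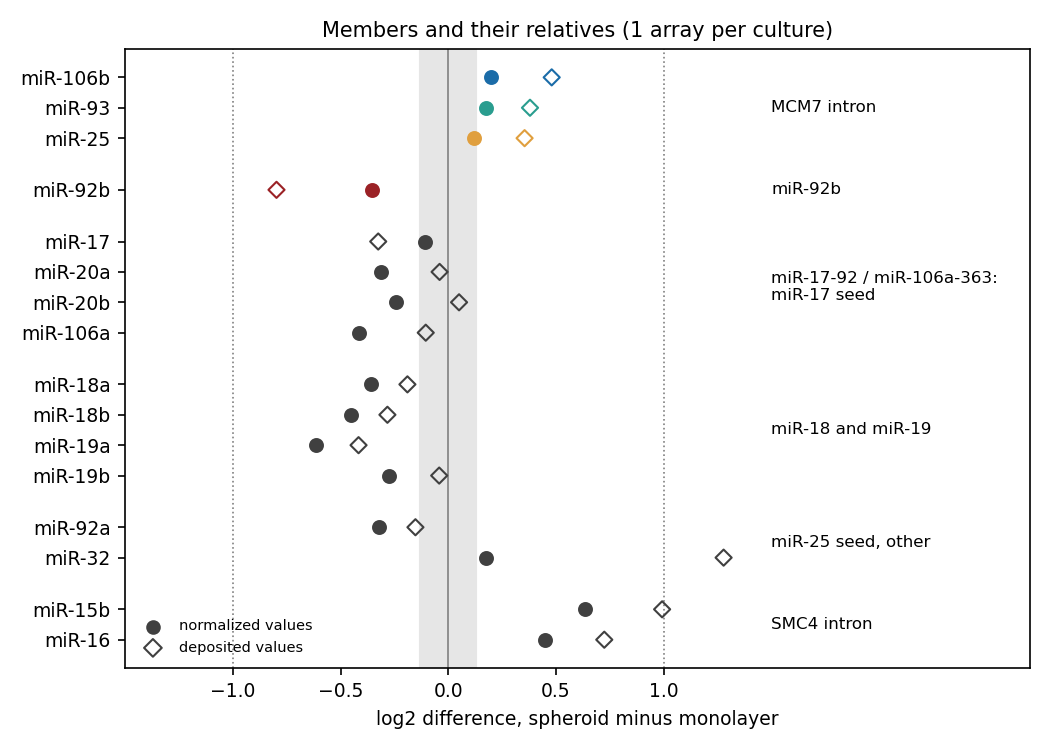
The log2 difference (spheroid minus monolayer) of the members in colour and of related miRNAs in dark grey, with filled circles for the normalized values and open diamonds for the authors' deposited values. The grey band spans 2 control-spot SDs (0.13) on either side of 0 and the dotted lines mark 2-fold. The 3 miRNAs of MCM7 lie to the right of the miRNAs of both related clusters on both scales.

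The seed of miR-25 gave a less uniform family. Besides miR-25 and miR-92b, the array held miR-92a, miR-32, miR-363 and miR-367, but the spots of miR-363 and miR-367 were under the limit on each array. miR-92a had deposited values of 84.5 in the monolayer and 76.0 in the spheroids. Its log2 difference of -0.32 was close to that of miR-92b in the main values, where the offset draws dim miRNAs towards 0. In the deposited values they were further apart. There the monolayer value was 1.11 times the spheroid value for miR-92a and 1.74 times for miR-92b. miR-32 was higher, at 0.18, but its monolayer spot stood only 2.37 blank SDs above the blank mean, with deposited values of 3.43 and 8.32. miR-25 was thus above 0 in the main values while its better measured seed relatives, miR-92a and miR-92b, were below. The sign of miR-92a rested on the scaling, since it was above 0 without scaling and with either spike control scaling. The difference of miR-25 exceeded that of miR-92b by 0.47, and by 0.39 to 1.20 under the other settings. It exceeded that of miR-92a by 0.44, and by 0.39 to 0.78. The direction of miR-92b itself was the same under all settings but scaling of the normexp values to the spike controls, where it was 0.068.

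The size of the members' differences depended on how the arrays were scaled. Their order, with miR-106b above miR-93 and miR-93 above miR-25, cannot change where only a scale factor per array differs. In the main values miR-106b exceeded miR-93 by 0.021, less than the control-spot SD of 0.065. With the background column described below subtracted, that gap was -1.35. miR-106b was at 0.32 with the arrays scaled to their 75th percentile, 0.60 with the median, 0.69 without scaling and 0.48 in the deposited values. With scaling to the spike control spots it reached 1.01, or 1.09 with the blank mean subtracted, which made it the only member 2-fold or more apart. The median of all 178 miRNAs moved with it, to 0.40 and 0.61 under those 2 spike settings. Relative to that median, miR-106b was higher by 0.25 in the main values and by 0.60 and 0.48 under them. All 3 MCM7 miRNAs were above 0 under 9 of the 10 other treatments and scalings, and the exception follows.

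**Figure D4:**
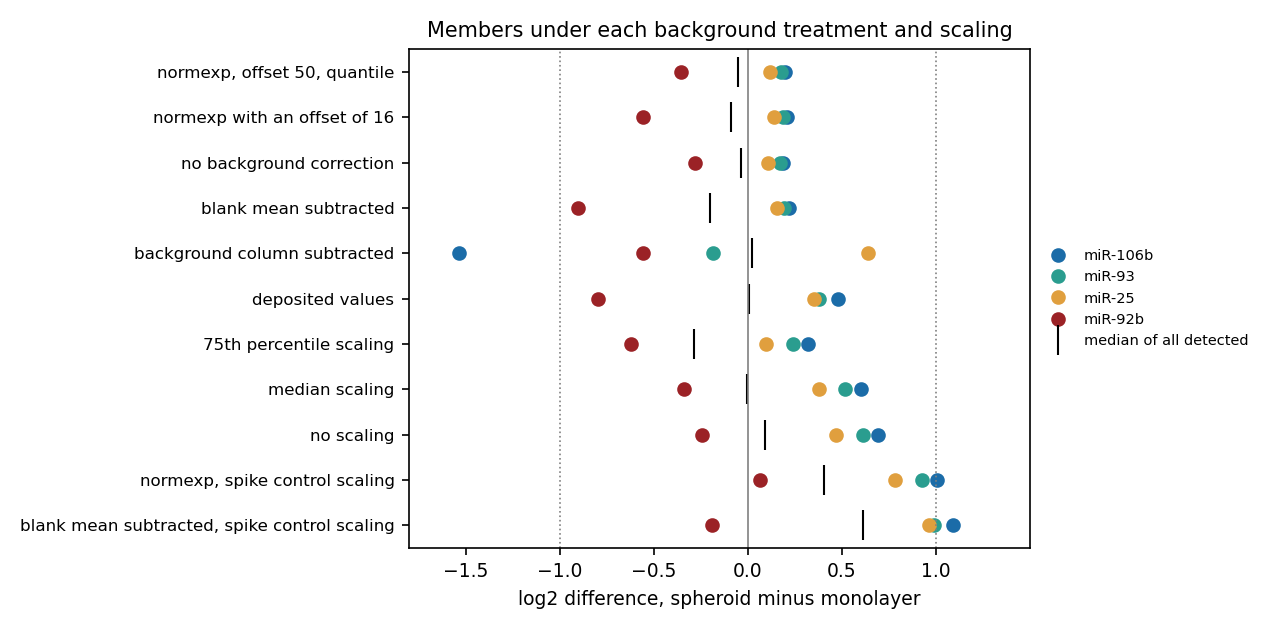
The log2 difference (spheroid minus monolayer) of the 4 members under each background treatment and scaling, with black ticks for the median of all 178 detected miRNAs and dotted lines at 2-fold. miR-106b, miR-93 and miR-25 lie to the right of miR-92b except where the column headed as background was subtracted and miR-106b was at -1.54.

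A measurement on miR-106b itself limits its result. The scanner tables carry a second intensity for each spot, headed as background, whose content is not given in the sources used here and which followed the spot itself (Pearson r of the log values over the 291 probes 0.969 and 0.953, which share array and spot). For miR-106b that value was 46.5% of the spot intensity in the monolayer and 91.0% in the spheroids, a rise of 44.5 percentage points that was exceeded by 1 of the 178 miRNAs. It rose by 15.1 points for miR-93 and 19.6 for miR-92b and changed by -16.1 for miR-25, against a median of -1.70 and a central range (5th to 95th percentile) of -27.2 to 30.3 over the 178. For the dim miR-92b the value was 69.2% of the spot in the monolayer and 88.8% in the spheroids. With this column subtracted, a treatment added after its values were seen, miR-106b was at -1.54, miR-93 at -0.19, miR-25 at 0.64 and miR-92b at -0.56. Under it miR-106b was also lower than miR-106a, by a log2 difference of -0.52, and 0 of the 9 related miRNAs lay below each MCM7 miRNA. The part of this column in the result for miR-106b was not tested.

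By the nearest difference over the 2 arrays, the miRNAs most like miR-106b were let-7g (0.20, a gap of 0.0023) and miR-138b (0.20). Those nearest to miR-93 were miR-32 and miR-454, both at 0.18. miR-532 (0.12) and miR-350 (0.11) were nearest to miR-25, and miR-18a (-0.36) and miR-1306 (-0.35) to miR-92b. With 2 arrays such likeness rests on 1 number for each miRNA. It also holds for the main values, where the offset draws dim miRNAs towards 0. In the deposited values miR-138b went from 6.89 to 14.7, miR-32 from 3.43 to 8.32 and miR-454 from 3.61 to 8.40. miR-532 went from 3.06 to 6.30 and miR-350 from 3.33 to 6.47. Each of these rises was steeper than that of the member beside it. The brighter let-7g went from 148 to 222.

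Set against the mammary tumour label, 6 of 6 epithelial miRNAs were detected on both arrays, with summed deposited values of 900.4 and 1359. The 6 epithelial miRNAs did not move together. Of them 5 were higher, where 44.9% of the 178 miRNAs were, with miR-200a at only 0.013. The other, miR-205, was lower, with deposited values of 170.0 and 27.6. Its log2 difference of -1.90 was the lowest of the 178 in the main values. The lists for other cells were detected in part or not at all, on both sides of the shares of all probes. Of 5 blood cell markers 2 were detected on each array, with miR-451, the red cell miRNA, on neither, and their summed values were 9.18 and 6.98. The endothelial miR-126 was detected on neither array. Of 4 fibroblast and smooth muscle markers 2 were detected on each (sums of 73.3 and 51.1), with miR-143 on neither. Most of that signal was miR-199, at deposited values of 58.3 and 41.1. Of 5 striated muscle markers 4 were detected (29.9 and 13.2), and of 3 neuronal markers 1 (6.65 and 5.59). Their part in the members' differences was not tested.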

How the data were processed

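Median spot intensities at 635 nm of 3200 spots per array were deposited by the authors, per the file headers, with no background correction or scaling; RNA was labelled with Cy5, per the labels' protocols. The authors' deposited value table holds intensities that matched the scanner values minus the trimmed blank mean (5% left out at each end, 85.1 and 76.7), times 0.611 and 0.498, within 0.0257 percent. Scanner software is not given in the sources used here.

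Intensities of all spots were corrected with limma's normexp (offset 50), then quantile normalized as log2 values over all 291 dog miRNA probes (limma 3.58.1, R 4.3.3; pandas 2.3.3, numpy 2.4.6, matplotlib 3.10.9, Python 3.11.15). The steps were tested on simulated data. Median and 75th percentile scaling used the 178 miRNAs detected on both arrays. With 1 sample per group no p-value was computed.

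The members, lists and alternatives were chosen with earlier results of these data known. The miRNAs named were the members, their fixed lists and the 2 nearest in difference to each member. Mature sequences were not used here. Gene neighbours came from RefSeq.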

Additional observations from a re-analysis of the deposited data

How the results depend on the processing

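The number of arrays limits all values: a single array per culture gives spot error only. No paired analysis was possible because each culture had 1 sample and no test was made. Of the 11 alternatives 2 were chosen after seeing the data: the background column and the normexp values scaled to the spike controls. The causes of the changes below were not tested.

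miR-92b was at -0.55 with an offset of 16, -0.28 without background correction and -0.90 with the blank mean subtracted, where the median of the other miR-25 seed miRNAs was 0.39. With median scaling miR-106b, miR-93 and miR-25 were at 0.60, 0.52 and 0.38 (median 0.52), the other miR-17 seed miRNAs at a median of 0.11 and the other miR-25 seed miRNAs at 0.038. With the 75th percentile miR-106b was at 0.32 and miR-92b at -0.62, and these 2 medians were -0.17 and -0.24. Without scaling the members were at 0.69, 0.61, 0.47 and, for miR-92b, -0.25, with a cluster median of 0.61, seed family medians of 0.21 and 0.13 and a median over all 178 miRNAs of 0.090. With the blank mean subtracted and spike control scaling they were at 1.09, 0.99, 0.96 and -0.19 (cluster median 0.99), with family medians of 0.54 and 1.17, 1 member 2-fold apart and an overall median of 0.61. With normexp and spike control scaling they were at 1.01, 0.93, 0.78 and 0.068 (cluster median 0.93), with family medians of 0.52 and 0.45, 1 member 2-fold apart and an overall median of 0.40. In the deposited values they were at 0.48, 0.38, 0.35 and -0.80 (cluster median 0.38), with family medians of -0.072 and 0.56 and an overall median of 0.0046.

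With the background column subtracted they were at -1.54, -0.19, 0.64 and -0.56 (cluster median -0.19), with a miR-17 seed median of -0.74, 1 member 2-fold apart and an overall median of 0.023. There miR-106b lay -0.52 from miR-106a, -1.35 from miR-93 and -1.56 from the overall median, and miR-93 lay -0.21 from that median. With a detection limit of the blank mean plus 5 SD, miR-32 dropped out and miR-92a alone gave a miR-25 seed median of -0.32. Among all 178 miRNAs, 4 higher and 5 lower were 2-fold apart in the main values, against 3 to 69 higher and 1 to 31 lower under the alternatives.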

Other observations

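A second pair of miRNAs from inside a gene of dividing cells was set beside the MCM7 cluster. miR-15b and miR-16 lie within SMC4, which encodes a subunit of condensin, and in human cells they repress cyclin mRNAs. miR-15b had deposited values of 45.9 in the monolayer and 91.4 in the spheroids, and miR-16 had 555 and 917. Their log2 differences in the main values were 0.63 and 0.45, both larger than those of miR-106b, miR-93 and miR-25. Of all 178 miRNAs 44.9% were above 0, and 11 had a higher difference than miR-15b and 24 a higher one than miR-16. Both were above 0 under 9 of the 10 other background treatments and scalings. These settings are not separate checks, since several differ only in a factor per array. The median of all 178 was itself above 0 without scaling (0.090) and under the 2 spike control scalings (0.40 and 0.61). A link to cell division was not tested. With the background column subtracted their differences ran from 0 to 0.14. miR-16 also comes from another gene, so its probe reads the sum of both.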
